A study of Bos taurus and other sequences with 9 samples.

Results

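Ultracentrifugation of fetal bovine serum (FBS) was examined by comparing UC-dFBS, the serum that remained after ultracentrifugation, with the untreated FBS it was prepared from, separately in 2 sera. Of the 9 libraries in the series, 4 were used, namely FBS-1 and UC-dFBS-1 from the Sigma-Aldrich serum and FBS-2 and UC-dFBS-2 from the Gibco serum, since these are the untreated and the ultracentrifuged preparation of each serum. For UC-dFBS, the serum was spun overnight and the light upper layer of the supernatant was passed through a sterile filter. Neither the pellet, the rest of the supernatant nor the filter was sequenced, so that where an RNA lower in UC-dFBS had gone was not measured. The exoRNeasy kit was used to capture extracellular vesicles (EVs) from medium with serum and to extract RNA, and libraries were prepared with molecular indices. The authors did not show that the RNA was bound to EVs, and consider a mix with non-vesicular RNA more likely. The series lists 425 miRNAs and 1361 loci of other small non-coding RNAs (ncRNAs), of which 132 miRNAs and 203 loci had at least 20 counts over the libraries of each serum and were tested. The limit adds the FBS and UC-dFBS counts that form the ratio. An RNA high in FBS could thus pass with few counts in UC-dFBS.

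Serum carries small RNA inside EVs, bound to Argonaute and other proteins, and on lipoproteins. Ultracentrifugation sediments particles by their size and density, and is the common way to prepare EV-depleted serum for cell culture, where leftover bovine RNA can be mistaken for RNA released by the cultured cells. miRNAs guide Argonaute proteins to target mRNAs, and since many mature miRNA sequences are the same in cattle and humans, they are given here by the human names of the deposited table. tRNA-derived fragments are cut from tRNAs and are abundant in serum, whereas snRNAs act in splicing, Y RNAs bind the Ro60 protein and snoRNAs guide chemical modification of other RNAs.

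The libraries held between 603780 (FBS-2) and 4003607 counts (FBS-1). All levels below are spike-in normalized counts, that is, counts divided by a factor that the authors derived from RNAs added in known amounts, and the factor lay between 4.84 and 7.45 counts per unit in the 4 libraries. A count of 0 allows up to 3 counts, equal to 0.402 to 0.619 spike-in normalized counts. Ratios are log2 of UC-dFBS over FBS within a serum, after adding 0.5 counts to both, so that -1 means that 50% of the FBS level was left and -2 that 25% was left. As there was 1 library of each kind per serum, and nothing states that a serum was spun more than once, the spread between the sera contains both the sera and the preparations. The spike-ins are of miRNA length, so that ratios of longer fragments rest on the same factor with less certainty.

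Total miRNA was reduced in both sera, whereas total tRNA was lower in one serum and higher in the other. Total miRNA was 42063 in FBS-1 and 7767 in UC-dFBS-1, and 16687 in FBS-2 and 3851 in UC-dFBS-2. This left 18.5% in the Sigma-Aldrich serum and 23.1% in the Gibco serum, and both UC-dFBS libraries lay below both FBS libraries. Total tRNA was 782752 in FBS-1 and 532209 in UC-dFBS-1, which left 68.0%, but 63322 in FBS-2 and 129130 in UC-dFBS-2, which is 204% of the FBS level. The raw counts of tRNA also went opposite ways, with log2 ratios of -0.12 in the Sigma-Aldrich serum and 0.90 in the Gibco serum. The direction in the Sigma-Aldrich serum still depends on the scaling. The share of tRNA among all counts was higher in UC-dFBS of both sera (94.7% in FBS-1 and 98.4% in UC-dFBS-1, 78.2% in FBS-2 and 96.6% in UC-dFBS-2). A share also rises when other classes fall. The classes with lower totals in both sera besides miRNA were snRNA (56.6% and 75.9% left), Y RNA (58.0% and 78.8%) and snoRNA (51.0% and 45.6%). Permuting the FBS and UC-dFBS labels of the log2 totals (exact, two-sided) gave p = 0.333 for miRNA, Y RNA and snoRNA, the smallest that 2 libraries against 2 can give, 0.667 for snRNA and 1 for tRNA. The permutation ignores the pairing by serum. Total snRNA was lower within each serum, but its level in UC-dFBS-1 (612) was above that in FBS-2 (409). For piRNA, the 11 loci together held 2 and 0 counts in the FBS libraries and 1 count in each UC-dFBS library, too few to compare.

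**Figure D1:**
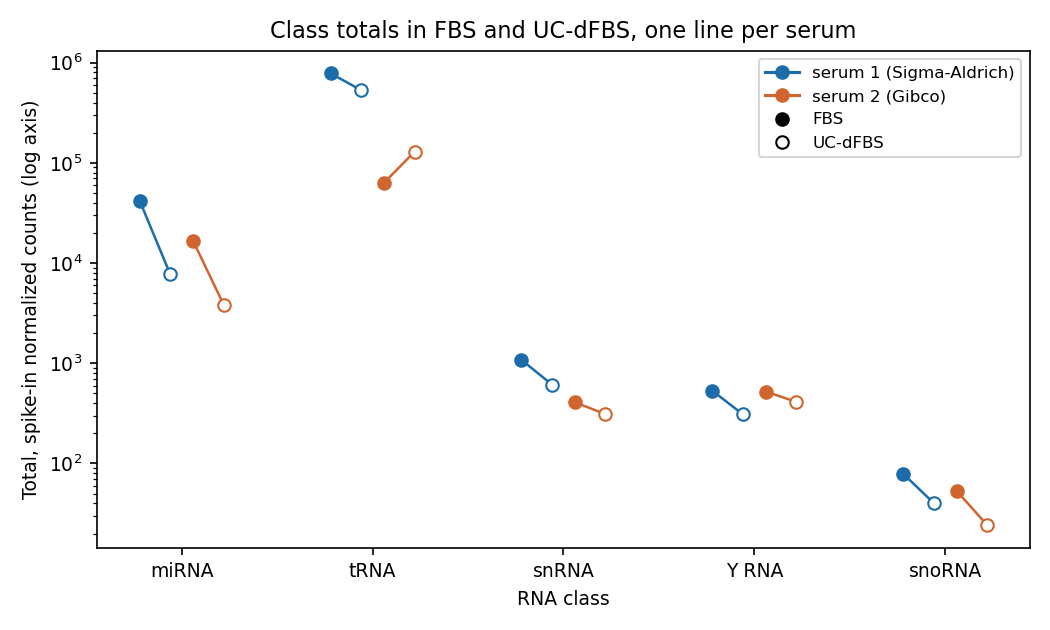
Total spike-in normalized counts (vertical log axis) of 5 RNA classes in FBS (filled points) and UC-dFBS (open points), with a line for each serum. The miRNA lines fall in both sera, to 18.5% and 23.1% of FBS, whereas the tRNA line falls in the Sigma-Aldrich serum and rises in the Gibco serum.

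Nearly all miRNAs were lowered, though not all by the same factor. Of the 132 miRNAs tested, 130 were lower in UC-dFBS and 0 were higher by edgeR's quasi-likelihood test at an adjusted p under 0.05 (98.5% of all tested were called lower and 0% higher, and no miRNA was higher at an unadjusted p under 0.05). The median log2 ratio was -2.68 in the Sigma-Aldrich serum (quartiles -3.04 and -2.22) and -2.58 in the Gibco serum (quartiles -3.12 and -2.18). The median miRNA kept 15.3% and 16.1% of its FBS level. Ratios were below -2 in both sera for 95 of the 132 (72%), and above -1 in both for 2 (1.52%). In 131 miRNAs (99.2%) both UC-dFBS libraries lay below both FBS libraries. In a fit of the 8 FBS-based libraries without the serum term, 126 of the 132 miRNAs were called lower, and 83 when UC-dFBS-2 was left out.

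The sera ranked the miRNAs broadly alike. Over the 132 miRNAs, the ratios of the sera correlated with Pearson r = 0.633 and Spearman rho = 0.576, and over the 70 miRNAs with at least 100 counts in each serum with r = 0.694 and rho = 0.698. These describe correlation across miRNAs, which share 4 libraries and are not replicates. The median absolute difference between the sera was 0.450, and 109 of the 132 miRNAs were within 1 of each other. In either direction, some well-counted miRNAs had exact 95% counting intervals that did not overlap between the sera, although the difference was not tested. miR-192-5p, a liver miRNA, had a ratio of -2.69 in the Sigma-Aldrich serum (interval -3.19 to -2.25) and -1.29 in the Gibco serum (-1.84 to -0.79). miR-127-3p, from the DLK1-DIO3 locus, had -1.84 (-2.27 to -1.45) and -2.97 (-3.53 to -2.49). Both were chosen as examples after their values were seen.

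**Figure D2:**
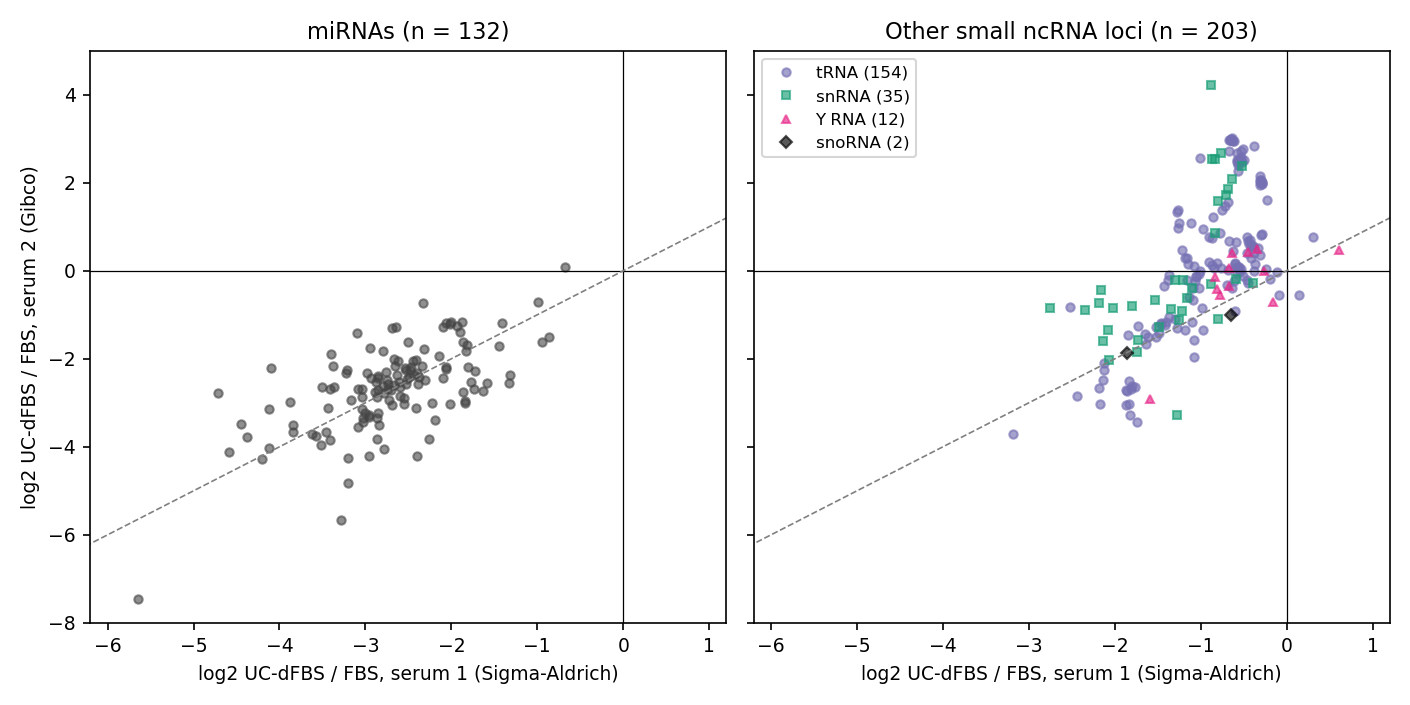
Log2 ratio of UC-dFBS over FBS in the Sigma-Aldrich serum (horizontal) and in the Gibco serum (vertical), for 132 miRNAs (left) and 203 loci of other small ncRNAs (right, by class); the dashed line marks equal ratios. The miRNAs sit around -2.68 and -2.58, whereas many tRNA and snRNA loci sit below 0 in the Sigma-Aldrich serum and above 0 in the Gibco serum. The lowest miRNA points in the Gibco serum are miR-144-5p and then miR-29c-3p, both with 0 counts in UC-dFBS-2. They are placed by the added 0.5 counts.

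The most abundant miRNAs of FBS were all lowered, and the 12 highest stayed among the 16 most abundant in UC-dFBS. miR-122-5p, the dominant hepatocyte miRNA, was at 19403 in FBS-1 and 4817 in FBS-2, and at 4629 in UC-dFBS-1 and 2100 in UC-dFBS-2. Both UC-dFBS libraries were below both FBS libraries, and the log2 ratios were -2.07 and -1.20 (fitted change -1.63, SE 0.60, edgeR adjusted p = 0.0075). It ranked first in each of the 4 libraries, and it lost less in both sera than the rest of the 12. Its share of the miRNA counts was therefore 46.1% in FBS-1 (95% Wilson interval 45.9 to 46.3%) and 59.6% in UC-dFBS-1 (59.2 to 60.0%), and 28.9% in FBS-2 (28.6 to 29.1%) and 54.5% in UC-dFBS-2 (53.9 to 55.1%).

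The let-7 miRNAs, which repress growth and developmental timing genes, were the next largest group. let-7a-5p was at 2755 in FBS-1 and 1669 in FBS-2, and at 381 in UC-dFBS-1 and 178 in UC-dFBS-2. let-7f-5p was at 1892 and 1224 in FBS, and at 223 and 104 in UC-dFBS, and let-7b-5p at 1740 and 952 in FBS, and at 323 and 183 in UC-dFBS. In each of the 3, all UC-dFBS levels were below all FBS levels, and let-7b-5p kept more than let-7f-5p in both sera, with ratios of -2.43 and -2.38 against -3.08 and -3.55. Of 9 let-7 family members tested, 9 were called lower, against 98.5% of all miRNAs tested, with medians of -2.85 and -2.63. let-7g-5p had the lowest ratios of the family, at -3.51 and -3.96.

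Other abundant miRNAs include some known from blood vessels and blood cells, although their source in these sera was not measured. miR-126-3p, an endothelial miRNA, was at 2116 and 1196 in FBS and 320 and 155 in UC-dFBS, with ratios of -2.72 and -2.95. miR-143-3p, a smooth muscle miRNA, was at 1313 and 431 in FBS and 227 and 71.8 in UC-dFBS, with -2.53 and -2.58. Both lay close to the median of all miRNAs. miR-142-3p, a miRNA of blood cells, was at 2759 and 821 in FBS and 192 and 71.7 in UC-dFBS, and its ratios of -3.85 and -3.52 were below the median in both sera. It ranked 2 and 6 in the FBS libraries and 7 in both UC-dFBS libraries. miR-16-5p, which is abundant in red cells, was at 870 and 459 in FBS and 60.4 and 36.2 in UC-dFBS (ratios -3.85 and -3.66), and its rank went from 9 and 7 to 14 in both. miR-21-5p, a widely expressed miRNA often studied in cancer, was at 850 and 258 in FBS and 134 and 64.5 in UC-dFBS (-2.67 and -2.0). The remaining members of the 12 most abundant were let-7i-5p, let-7c-5p and miR-142-5p, with ratios between -3.23 and -2.33. All 12 were called lower, as were 98.5% of all miRNAs tested, so that the calls do not set them apart.

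The largest losses included miRNAs of red cells. miR-144-5p, which is processed from the same primary transcript as miR-451a in erythroid cells, had 167 and 96 counts in FBS and 4 and 0 in UC-dFBS. Its level went from 34.5 to 0.612 in the Sigma-Aldrich serum and was at least 29.3-fold lower in the Gibco serum, taking 0 counts as up to 3. Its other arm, miR-144-3p, had 62 and 28 counts in FBS and 3 and 1 in UC-dFBS. miR-451a, with 348 and 243 counts in FBS and 25 and 11 in UC-dFBS, went from 71.8 to 3.82 and from 32.6 to 1.61 (ratios -4.21 and -4.28, fitted change -4.26, SE 0.27, edgeR adjusted p = 1.1e-30). The 2 sera thus gave nearly the same ratio for miR-451a. miR-93-5p, from the cell cycle associated miR-106b-25 cluster, was at 209 and 113 in FBS and 11.9 and 6.89 in UC-dFBS (ratios -4.12 and -4.02, edgeR adjusted p = 9.4e-41). Such small p-values rest on a spread that edgeR estimates over all tested miRNAs of the same 4 libraries. They do not measure how the loss would repeat over further sera or spins.

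The other miRNAs with the largest fitted losses had few counts left. miR-199a-5p, from connective tissue cells, went from 38 and 22 counts to 2 and 1. miR-136-3p, from the imprinted DLK1-DIO3 locus, went from 40 and 30 counts to 2 and 2, and miR-454-3p from 48 and 33 to 2 and 4. These 3 passed the test, but with so few counts their ratios are loose. The exact 95% counting interval of the miR-199a-5p ratio reached up to -2.73 in the Sigma-Aldrich serum and -1.70 in the Gibco serum, the latter above the median of all miRNAs. miR-106b-3p went from 105 and 108 counts to 15 and 3.

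The miRNAs that were not called lower were miR-1246 and miR-203a, both with low counts. miR-1246, whose sequence is also found within the U2 snRNA, had 57 and 32 counts in FBS and 48 and 31 in UC-dFBS. Its level went from 11.8 to 7.34 in the Sigma-Aldrich serum and from 4.29 to 4.54 in the Gibco serum, so that the groups overlapped, with ratios of -0.68 and 0.08 (fitted change -0.34, SE 0.40, edgeR adjusted p = 0.387). miR-203a, a miRNA of skin epithelium, had 34 and 40 counts in FBS and 23 and 22 in UC-dFBS. Its level went from 7.02 to 3.52 and from 5.37 to 3.22, with ratios of -0.99 and -0.72 (fitted change -0.86, SE 0.44, edgeR adjusted p = 0.0541). The UC-dFBS levels of miR-203a were both below the FBS levels. The authors found miR-203a mainly as short inserts and name an experimental artifact as a possibility, which was not tested here. Counts of this size do not fix the size of the loss, as the counting interval of miR-203a ran from -1.83 to -0.19 and from -1.56 to 0.05.

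Among miRNAs with at least 100 counts in each serum, ranked by the lower ratio of the 2 sera, the best retained was miR-320b, with 61 and 162 counts in FBS and 45 and 52 in UC-dFBS, and ratios of -0.87 and -1.50. The related miR-320a is made from a hairpin that bypasses the usual nuclear cleavage. miR-423-5p followed with 137 and 240 in FBS and 38.5 and 67.7 in UC-dFBS, and its ratios were the same in both sera (-1.83 and -1.83). miR-181a-5p was at 65.4 and 39.6 in FBS and 17.7 and 17.6 in UC-dFBS, and miR-148a-3p, a liver miRNA, at 403 and 133 in FBS and 101 and 59.1 in UC-dFBS. For miR-181a-5p (-1.88 and -1.17), miR-148a-3p (-2.0 and -1.17), miR-107 (-1.93 and -1.26), miR-181b-5p (-2.02 and -1.20) and miR-122-5p, the Gibco serum kept more than the Sigma-Aldrich serum. miR-494-3p, with -2.15 and -1.94, was the last of the 8 in this ranking. All 8 were called lower, as were 98.5% of all miRNAs tested.

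**Figure D3:**
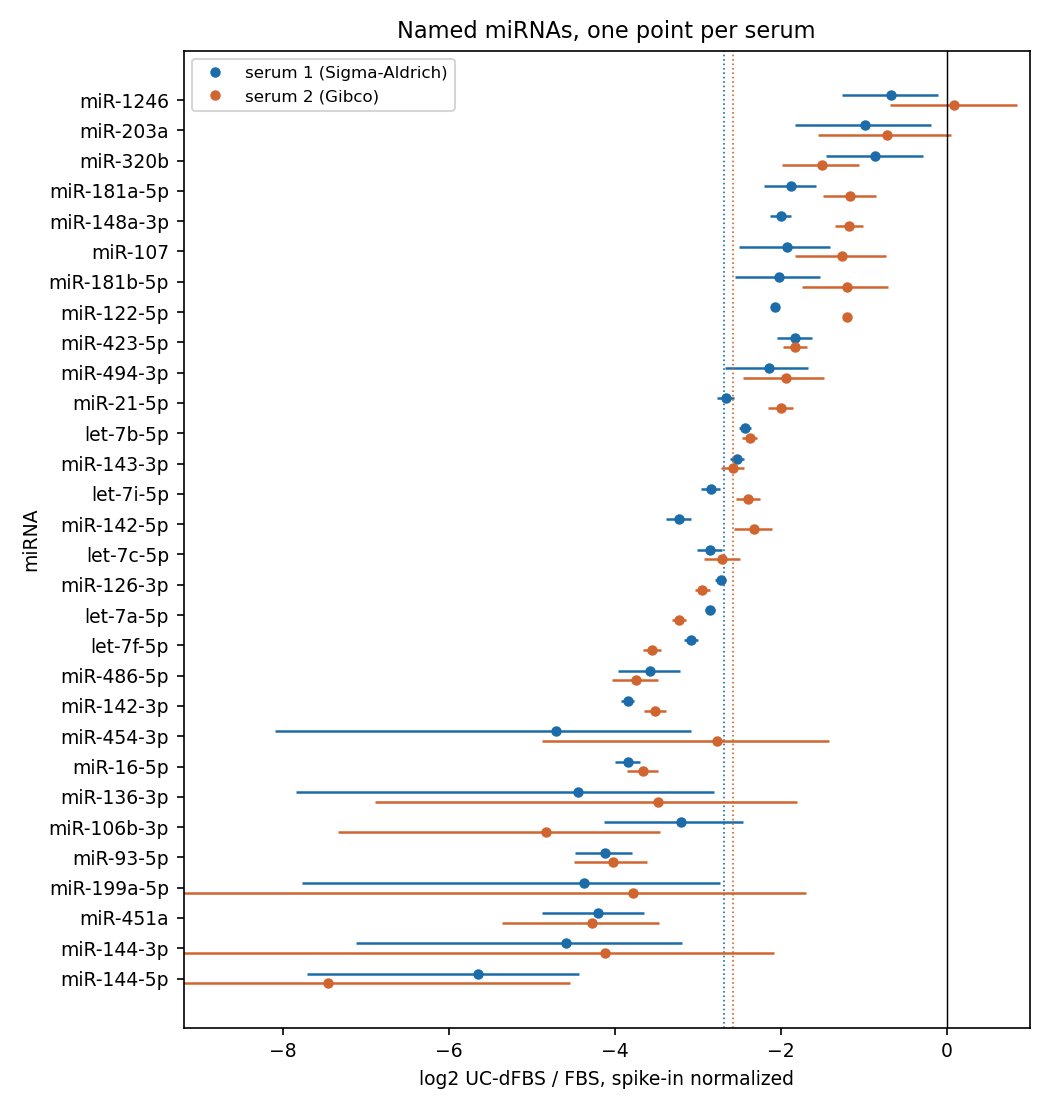
Log2 ratio of UC-dFBS over FBS (horizontal) for each miRNA named by the selection rule, with the 2 not called lower and those that differed from the other miRNAs; points are sera, bars are exact 95% counting intervals and dotted lines are the medians of all 132 miRNAs. The order runs from miR-1246, at -0.68 and 0.08, to miR-144-5p, whose Gibco point has 0 counts in UC-dFBS and is placed by the added 0.5 counts; bars that reach the left edge go on beyond it.

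To see which miRNAs departed from the common loss, the libraries were also scaled to the other miRNAs with TMM, edgeR's trimmed mean scaling, which moved the median fitted change from -2.67 to -0.04. On this scale, 6 miRNAs were lower (4.55% of those tested) and 5 were higher (3.79%), with adjusted p between 0.0289 and 0.0466. The lower ones were miR-144-5p, miR-451a (-1.62), miR-93-5p (-1.45), miR-16-5p (-1.13), miR-142-3p (-1.06) and miR-486-5p (-1.06), of which miR-144-5p, miR-451a and miR-486-5p are red cell miRNAs. The higher ones were miR-1246 (2.29), miR-203a (1.75), miR-181a-5p (1.10), miR-148a-3p (1.03) and miR-423-5p (0.79). All 11 kept their sign relative to the median in both sera. When the size factors of DESeq2 were used for the same fit, 0 miRNAs passed (lowest adjusted p 0.056, 12 miRNAs under 0.1 and 30 at an unadjusted p under 0.05).

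Lists of miRNAs by cell of origin differed in their medians. The 4 red cell miRNAs tested had medians of -4.40 and -4.20, with miR-486-5p at -3.57 and -3.75, against -2.68 and -2.58 over all miRNAs. The medians of this list were the same with miR-144-5p at its bound. The 5 white cell miRNAs had medians of -3.17 and -2.94, and miR-142-3p was the lowest in both sera. miR-223-3p, a neutrophil miRNA, was at -2.50 and -2.42. The 4 vascular miRNAs, with medians of -2.63 and -2.76, spanned miR-126-5p (-2.96 and -3.32) and miR-145-5p (-1.86 and -1.61). The 4 liver miRNAs had medians of -2.38 in the Sigma-Aldrich serum and -1.25 in the Gibco serum. Within that list, miR-194-5p had the same ratio in both sera (-2.70 and -2.71) whereas miR-122-5p, miR-148a-3p and miR-192-5p had higher ratios in the Gibco serum. All members tested of these 4 lists were called lower, as were 98.5% of all miRNAs tested, so that the calls set no list apart. The muscle list had 1 tested member, miR-1, with -1.33 and -2.56.

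Families and clusters differed in their medians, while all of their tested members were called lower, against 98.5% of all miRNAs tested. The 4 miR-320 members were at -1.20 and -1.67 (medians) and none of them went below -2 in both sera. The pair of miR-181 members had medians of -1.95 and -1.18. By contrast, the 6 tested members of the miR-17-92 and miR-106b-25 clusters, which promote proliferation, had medians of -3.06 and -3.56, and in this list miR-92a-3p was retained best (-2.35 and -2.16). The miR-30 family (4 tested, medians -2.81 and -2.95) and the DLK1-DIO3 cluster (16 tested, -2.69 and -2.68) lay near the median of all miRNAs, although the latter ranged from miR-412-5p (-1.41 and -1.18) to miR-136-3p in the Sigma-Aldrich serum (-4.45, with -3.48 in the Gibco serum) and to miR-487b-3p in the Gibco serum (-4.26, with -3.20 in the Sigma-Aldrich serum). The group of miR-15, miR-16, miR-103 and miR-107 (5 tested) was wide as well, since miR-15b-5p was at -4.12 and -3.15 and miR-107 at -1.93 and -1.26.

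**Figure D4:**
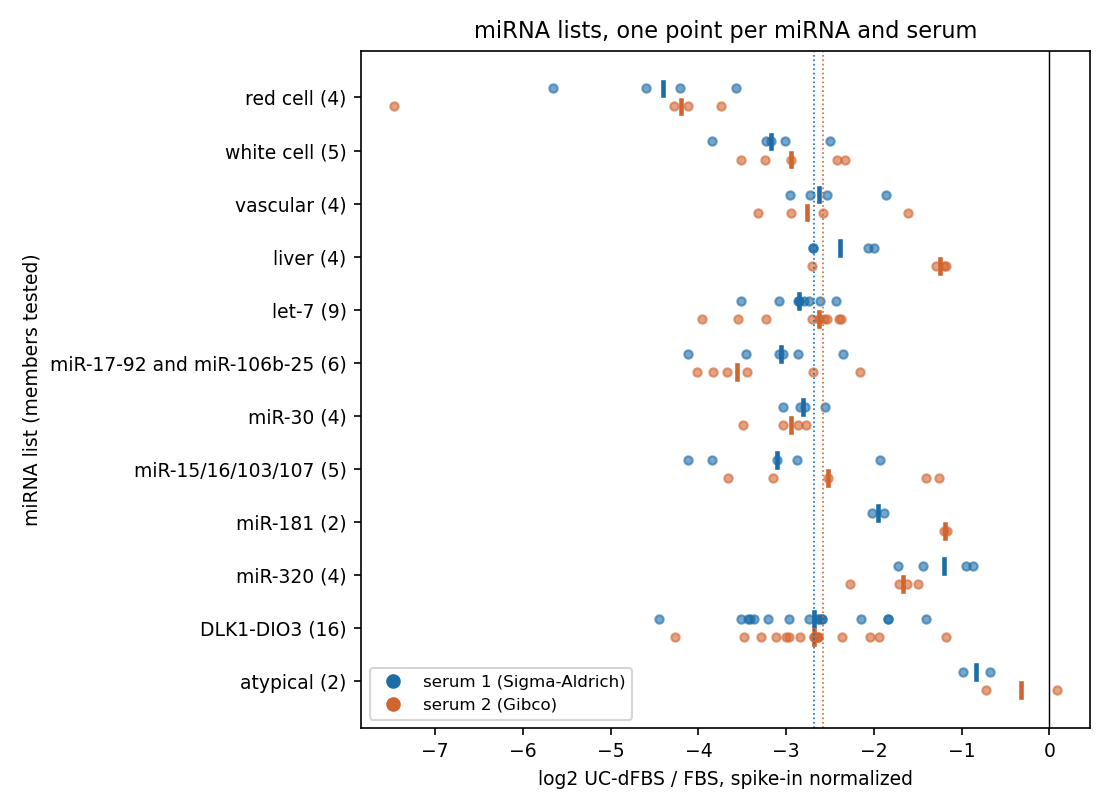
Log2 ratio of UC-dFBS over FBS (horizontal) for the tested members of 12 miRNA lists, with a point per miRNA and serum, a thick bar at each list's median and dotted lines at the medians of all 132 miRNAs. The red cell list lies lowest, at -4.40 and -4.20. The liver, miR-320, miR-181 and atypical (miR-1246 and miR-203a) medians lie to the right of both dotted lines.

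Lists of miRNAs by the carrier that the literature assigns to them, as compiled by the study, were described in the same way. The 68 tested miRNAs that were listed as non-vesicular only had medians of -2.66 and -2.41, and 49 of them were below -2 in both sera. The 28 listed as vesicular, or as both, had medians of -2.85 and -3.06, and 25 were below -2 in both sera, against 95 of the 132 miRNAs in all. All 68 and all 28 were called lower, against 98.5% of all 132. Of the 16 tested miRNAs that are often reported in EVs of cultured cells, 15 were called lower, a share near the 98.5% of all miRNAs tested, with medians of -2.76 and -2.46, and the exception was miR-1246.

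The other small ncRNAs gave a different picture, in which the sera parted. Of the 203 loci tested, 154 were tRNA, 35 snRNA, 12 Y RNA and 2 snoRNA loci. The median log2 ratio was -0.80 in the Sigma-Aldrich serum and 0.03 in the Gibco serum. In both sera, 98 loci (48.3%) were lower and 2 were higher, whereas 102 were lower in the Sigma-Aldrich serum and higher in the Gibco serum. More than 50% of the FBS level was left in both sera in 116 loci (57.1%), and less than 25% in 8 (3.94%). As reads of near-identical tRNA and snRNA copies can be assigned to several loci, and their placement is not stated in the sources used here, loci of 1 group are not independent of each other and single loci are uncertain.

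By edgeR's test with the serum as a block, 19 of the 203 loci were lower (9.36%) and 0 were higher (0%), at an adjusted p under 0.05. At an unadjusted p under 0.05 there were 47 loci. Of the 19, 9 were tRNA, 8 U1 snRNA, 1 Y RNA and 1 snoRNA loci, and both UC-dFBS libraries lay below both FBS libraries in 35 of all 203 loci (17.2%). These calls are far less firm than those of the miRNAs. Without the serum block 0 loci passed and 15 had an unadjusted p under 0.05, DESeq2 with spike-in factors called 48, and 0 passed in the 8 FBS-based libraries without the block, whether all 8 were used or any 1 of the 4 libraries was left out.

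The lost tRNA loci were mainly those of glycine with the GCC anticodon. tRNA35-GlyGCC, at chromosome 1, 161413094 to 161413164 (human GRCh37, as in the deposited table), went from 160 to 35.5 in the Sigma-Aldrich serum and from 18.5 to 2.2 in the Gibco serum (ratios -2.17 and -3.03, fitted change -2.58, SE 0.66, edgeR adjusted p = 0.0088). In each serum the UC-dFBS level was lower, but the level in UC-dFBS-1 was above that in FBS-2, so that the groups overlapped. Its neighbours tRNA37-GlyGCC, tRNA39-GlyGCC and tRNA41-GlyGCC had ratios of -2.18 to -2.13 in the Sigma-Aldrich serum and -2.66 to -2.25 in the Gibco serum. All 13 GlyGCC loci tested were lower in both sera, with medians of -1.87 and -2.68, and 5 were called, against 48.3% and 9.36% of all 203 loci. The summed level of the 15 GlyGCC loci listed went from 3882 to 1049 and from 431 to 62.4.

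The most abundant loci of all, however, belong to glycine as well and stayed. tRNA34-GlyCCC (chromosome 16, 686736 to 686806) was at 82732 in FBS-1 and 67347 in UC-dFBS-1, and at 18584 in FBS-2 and 32607 in UC-dFBS-2. tRNA27-GlyCCC (chromosome 2, 70476123 to 70476193) was at 75377 and 61900, and at 16673 and 29934. Both were lower in the Sigma-Aldrich serum (-0.30 and -0.28) and higher in the Gibco serum (0.81 and 0.84), and neither passed the test (edgeR adjusted p = 0.972 for both). The other tested GlyCCC loci, tRNA4-GlyCCC and tRNA133-GlyCCC, had far lower levels, and ratios of -1.83 and -1.76 in the Sigma-Aldrich serum and -3.02 and -2.63 in the Gibco serum, close to those of GlyGCC.

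The lowest ratio of a tRNA locus was that of tRNA8-SeCTCA, the tRNA that inserts selenocysteine (chromosome 19, 45981860 to 45981945). It had 84 and 21 counts in FBS and 12 and 1 in UC-dFBS, with ratios of -3.19 and -3.71 (fitted change -3.45, SE 0.60, edgeR adjusted p = 6.0e-06). tRNA5-AspGTC (chromosome 12, 98897281 to 98897352) went from 306 to 56.3 and from 123 to 17 (-2.44 and -2.85, edgeR adjusted p = 0.0255). The 13 AspGTC loci were all lower in both sera, with medians of -1.52 and -1.28, although tRNA5-AspGTC was the only one called, a share near the 9.36% of all 203 loci. Among the tRNAs of lysine, the 9 LysCTT loci were lower in both sera (medians -1.08 and -1.17), whereas the 6 LysTTT loci were at -1.15 in the Sigma-Aldrich serum and 0.21 in the Gibco serum.

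A number of tRNA groups kept more than 50% of their FBS level in both sera by the median. All 21 proline loci listed were tested and had medians of -0.51 and -0.03. tRNA6-ProCGG (chromosome 16, 3222049 to 3222120) was at 17.5 and 9.26 in FBS and 16.2 and 9.09 in UC-dFBS, and tRNA4-ProAGG (chromosome 16, 3210386 to 3210480) at 12.8 and 9.39 in FBS and 10.9 and 9.67 in UC-dFBS. Their ratios, between -0.24 and 0.04, were the highest among the loci with at least 100 counts in each serum when ranked by the lower serum, together with tRNA14-ThrCGT (-0.23 and 1.61) and Y_RNA.44-201 (-0.26 and 0.00). None of the proline loci was called in either direction, but only 9.36% of all 203 loci were called lower and 0% higher. The lack of calls thus does not show that they were retained. The SE of the tRNA6-ProCGG change was 0.51. The 15 glutamate loci had medians of -0.90 and 0.05, and the 9 methionine loci of -0.41 and 0.56.

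The sera differed most in the tRNAs of histidine, valine and alanine and in U4 snRNA. The 11 HisGTG loci listed went together from 498743 to 319966 in the Sigma-Aldrich serum, but from 4187 to 32890 in the Gibco serum, and the 10 tested had medians of -0.65 and 2.97. For the 15 ValCAC loci listed the sums went from 18629 to 12574 and from 282 to 1569 (10 tested, medians -0.55 and 2.51), and ValAAC gave medians of -0.56 and 2.49 (9 tested). Within each of these groups, all tested loci were lower in the Sigma-Aldrich serum and higher in the Gibco serum. The 8 alanine loci gave -0.30 and 2.0. The 50 U4 loci listed went together from 557 to 330 in the Sigma-Aldrich serum and from 6.71 to 30.5 in the Gibco serum, and the 10 tested had medians of -0.78 and 2.24. None of these loci passed the test across both sera, against 9.36% of all 203 loci.

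Altogether 54 of the 203 loci had a ratio above 1 in the Gibco serum. They comprised all 10 histidine loci, 23 of the 24 valine loci, all 8 alanine loci, 9 of 10 U4 loci and 4 others, which were tRNA loci of ThrCGT (2), IleAAT and PseudoTTC. In the Sigma-Aldrich serum the same 54 loci had ratios between -1.27 and -0.23. They were scarce in FBS-2 relative to FBS-1, as their level in FBS-1 was above that in FBS-2 by a median log2 of 6.09 (range 2.99 to 8.64), against 1.93 for the other 149 loci. UC-dFBS-1 was above UC-dFBS-2 by a median log2 of 3.05 in the 54 loci and of 1.23 in the other loci. FBS-2 enters both the ratio of the Gibco serum and the difference between the FBS libraries, so that these values are not independent, and whether the level of FBS-2 or that of UC-dFBS-2 is the unusual one, or whether reads passed between libraries, was not tested.

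**Figure D5:**
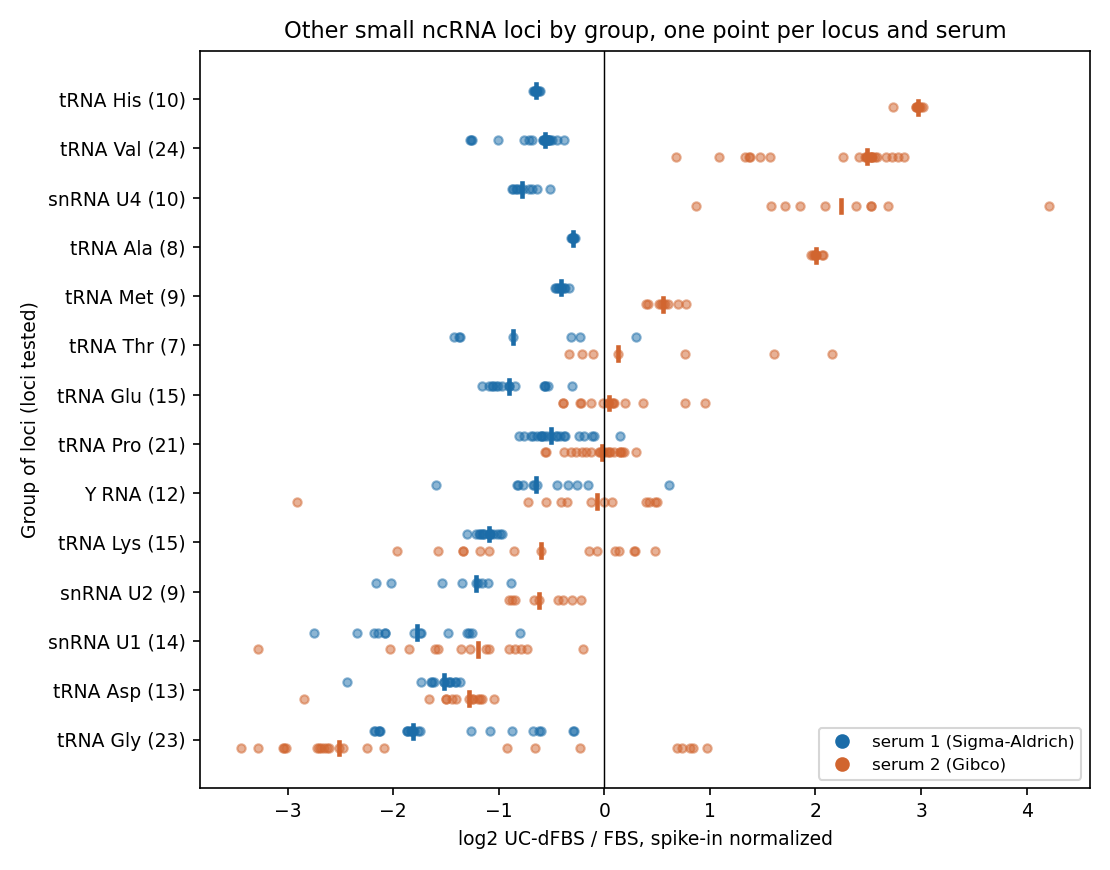
Log2 ratio of UC-dFBS over FBS (horizontal) for tested loci of tRNAs by amino acid (groups of at least 3 loci), of U1, U2 and U4 snRNA and of Y RNA, with a point per locus and serum and a thick bar at each median. Glycine, aspartate, U1 and U2 medians lie below 0 in both sera, whereas histidine, valine, alanine and U4 lie at -0.78 to -0.30 in the Sigma-Aldrich serum and at 2.0 to 2.97 in the Gibco serum.

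Among snRNAs, U1, which recognises 5′ splice sites, was lost most. All 14 U1 loci tested were lower in both sera, with medians of -1.77 and -1.20, and 8 of them were called lower, against 48.3% and 9.36% of all 203 loci. U1.84-201 (chromosome 7, 141427784 to 141427948) went from 13 and 26 counts to 7 and 2 (edgeR adjusted p = 0.0088), and RNU1-5-201, also called, from 26 and 33 counts to 8 and 7. The loci called had few counts, at most 40 in a library. The 9 U2 loci were lower in both sera as well (medians -1.22 and -0.62), but 0 of them were called. RNU11-201 and RNU12-201, of the minor spliceosome, were the most abundant snRNA loci. RNU11-201 (chromosome 1, 28975112 to 28975245) was at 177 and 114 in FBS and 118 and 101 in UC-dFBS, and RNU12-201 (chromosome 22, 43011250 to 43011399) at 78.9 and 69.9 in FBS and 60.0 and 58.0 in UC-dFBS. Both kept more than 50% of their FBS level in both sera (ratios of -0.59 and -0.18, and of -0.40 and -0.27), and neither passed the test (edgeR adjusted p = 0.899 for both).

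Most Y RNA loci tested kept more than 50% of their FBS level, although total Y RNA was lower in both sera (58.0% and 78.8% left). Y_RNA.384-201 (chromosome 7, 6252269 to 6252371) was at 148 and 158 in FBS and 86.4 and 108 in UC-dFBS, and Y_RNA.493-201 (chromosome 19, 40848236 to 40848348) at 119 and 137 in FBS and 74.8 and 107.3 in UC-dFBS. In these most abundant Y RNA loci both UC-dFBS libraries were below both FBS libraries, but the change was small (ratios between -0.77 and -0.35) and did not pass the test. Of the 12 loci tested, 6 had both UC-dFBS libraries below both FBS libraries, against 17.2% of all 203 loci. The 12 had medians of -0.65 and -0.07, and 11 of them kept more than 50% in both sera, against 57.1% of all 203 loci. The exception, Y_RNA.601-201 (chromosome 15, 69698780 to 69698891), went from 14 and 20 counts to 6 and 2 and was called lower (edgeR adjusted p = 0.0088).

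Few snoRNAs were measurable. SNORD94-201, a guide for U6 snRNA methylation (chromosome 2, 86362993 to 86363129), was at 35.9 and 37.7 in FBS and 22.9 and 18.8 in UC-dFBS, with ratios of -0.65 and -1.0 and no call (edgeR adjusted p = 0.477). SCARNA15-201, a guide RNA of Cajal bodies, had 41 and 49 counts in FBS and 15 and 12 in UC-dFBS, and was called lower with ratios of -1.85 and -1.86. SNORD57.1-201 had 79 counts in FBS-1 and 61 in UC-dFBS-1, but 0 in FBS-2 and 2 in UC-dFBS-2, and was not tested.

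No ratio is given for the RNAs below the limit of 20 counts, 293 miRNAs and 1158 loci. Of the 425 miRNAs listed, 57 had over 3 counts in both FBS libraries and at most 3 in both UC-dFBS libraries, of which 4 were tested, and 0 showed the opposite pattern. Among the 1361 other loci, 27 had the first pattern. The opposite pattern was shown by SCARNA17-201 (3 and 2 counts in FBS, 4 and 7 in UC-dFBS) and tRNA106-PheGAA (2 and 1, and 4 and 4), differences of a few counts.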

How the data were processed

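The authors collapsed reads by insert and molecular index, trimmed them with cutadapt 1.11 and mapped them with Bowtie2 2.2.2 to mature miRNAs and then to the genome (GRCh37 per the labels). The deposited counts are unnormalized reads per miRNA or locus, and the deposited spike-in normalized signal is each count divided by the slope of a linear fit to the spike-ins, a factor that was constant within a library to 2.412e-06 percent.

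Ratios were computed within each serum with 0.5 counts added, for RNAs with at least 20 counts over the libraries of each serum. Tests used edgeR 4.0.16 (quasi-likelihood F-test, R 4.3.3) on counts, with the spike-in factor as library size, the serum as a block (1 residual degree of freedom), separate fits of miRNAs and other loci, and Benjamini-Hochberg adjustment with a threshold of 0.05. UC-dFBS was made from the serum of its FBS. Across RNAs, the log2 differences between the sera in FBS correlated with those in UC-dFBS (r = 0.536 for 132 miRNAs and 0.813 for 203 loci). In simulated counts, changes of 1, 2 and 3 (log2) were found in 37.5%, 97.5% and 97.4% of changed miRNAs and in 0%, 43.9% and 68.4% of other loci. A minority of RNAs was changed there, up or down at random and alike in both sera. In the data nearly all miRNAs fell and the sera parted in tRNA, so that these shares need not hold for the data. Totals, permutations, exact binomial intervals of ratios and Wilson intervals of shares used python 3.11.15 with scipy 1.17.1. Intervals and the limit of 3 counts cover counting error only. Alternatives were DESeq2 1.42.0, TMM, other filters, pseudocounts and libraries, and shares of counts.

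RNAs named singly are the 12 most abundant miRNAs in FBS, the 8 with the largest called loss, the 8 best retained with at least 100 counts per serum, the 2 most abundant loci of each other class, the 8 loci with the largest called loss, and the 4 highest and 4 lowest well-counted loci, with list members. Others were named after their values were seen. The members and lists were chosen with earlier results of these data known.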

Additional observations from a re-analysis of the deposited data

Results flagged for a closer look

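The sera went opposite ways in a number of results, each listed because every value was lower in the Sigma-Aldrich serum and higher in the Gibco serum. With 1 pair of libraries per serum, the difference between the sera was not tested. Total tRNA had a log2 ratio of UC-dFBS over FBS of -0.56 in the Sigma-Aldrich serum and 1.03 in the Gibco serum. The most abundant tRNA loci, tRNA34-GlyCCC and tRNA27-GlyCCC, had -0.30 and -0.28 in the Sigma-Aldrich serum and 0.81 and 0.84 in the Gibco serum.

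Groups of at least 3 loci were also listed where all tested loci went opposite ways, by the median log2 ratio in the Sigma-Aldrich serum and then the Gibco serum. HisGTG had -0.65 and 2.97. ValCAC had -0.55 and 2.51, ValAAC -0.56 and 2.49 and ValTAC -0.72 and 1.57. AlaTGC had -0.30 and 2.0, and AlaCGC also -0.30 and 2.0. MetCAT had -0.41 and 0.56, GluTTC -0.56 and 0.087, and U4 snRNA -0.78 and 2.24. Loci of a group can share reads, so that a group is not to be read as many independent observations.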

How the results depend on the processing

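The 130 miRNA calls were 127 with no replicate block (4 libraries), 130 with UF-dFBS added under the replicate block, 126 in the 8 FBS-based libraries and 130 with DESeq2 and spike-in factors. At least 100 counts per serum left 70 miRNAs, of which 70 were called. Leaving out a library gave 83 to 122 calls, in fits of the FBS-based libraries without the block, where the lone sample is assumed to vary like the other groups. Scaling to the miRNAs themselves gave 11 calls with TMM (6 lower, 5 higher) and 0 with DESeq2 size factors (30 at an unadjusted p under 0.05), by construction without the shared loss. The median miRNA ratio was -2.36 with a pseudocount of 5 and -0.35 as a share of the miRNA counts.

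The 19 calls of other loci were 0 with no replicate block (15 at an unadjusted p under 0.05) and 1 under the replicate block with UF-dFBS (11 unadjusted). They were 0 in the 8 FBS-based libraries (0 unadjusted), 0 with TMM (35 unadjusted) and 6 with DESeq2 size factors. Further, 48 were called by DESeq2 with spike-in factors, 33 with at least 10 counts in 2 libraries, 30 with no filter and 6 with at least 100 counts per serum. Leaving out a library from the 8, still without the block, also gave 0 each time (0 or 1 unadjusted), and the cause was not tested. Their median ratio, -0.38 over both sera, was 0.034 without the Sigma-Aldrich pair and -0.80 without the Gibco pair. Without the Gibco pair the mean log2 ratio of total tRNA, 0.24, became -0.56, and it was 1.03 without the Sigma-Aldrich pair. From raw counts, total snoRNA had -0.90.

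Relative to the other miRNAs, 12 of the 27 named miRNAs had a positive change, by TMM and DESeq2 size factors. These were miR-122-5p (0.99 and 1.04), let-7b-5p (0.22 and 0.27), miR-143-3p (0.072 and 0.12), let-7i-5p (0.0030 and 0.050), miR-21-5p (0.29 and 0.33), miR-320b (1.40 and 1.45), miR-423-5p (0.79 and 0.84), miR-181a-5p (1.10 and 1.15), miR-107 (1.02 and 1.06), miR-148a-3p (1.03 and 1.08), miR-181b-5p (1.0 and 1.05) and miR-494-3p (0.57 and 0.62). The same settings gave 0.22 and 0.45 for tRNA6-ProCGG, 0.18 and 0.41 for tRNA4-ProAGG and 0.14 and 0.38 for Y_RNA.44-201. DESeq2 size factors gave 0.13 for RNU11-201 and 0.18 for RNU12-201. With no replicate block, the fitted change was -0.020 for tRNA34-GlyCCC and -0.0034 for tRNA27-GlyCCC, in place of 0.26 and 0.28. Without FBS-2 or UC-dFBS-1, it was -0.73 and -0.64 for tRNA34-GlyCCC, -0.72 and -0.62 for tRNA27-GlyCCC and -0.84 and -1.03 for tRNA14-ThrCGT. Without FBS-1, the called loci tRNA35-GlyGCC, tRNA41-GlyGCC, tRNA37-GlyGCC and tRNA39-GlyGCC had 0.026, 0.14, 0.20 and 0.46, tRNA6-ProCGG 0.45 and tRNA4-ProAGG 0.13. Without UC-dFBS-2, tRNA6-ProCGG had 0.28. These fits have no serum term, so that a missing library changes the mix of sera in a group.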

Other observations

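Both arms of 13 miRNA hairpins were tested, and these pairs were looked at after their values had been seen. The absolute difference between the arms, as the mean log2 ratio over both sera, had a median of 0.475 and ranged from 0.118 to 2.2. The value of 2.2 is that of miR-144 and is set by the added 0.5 counts. Its 5p arm had 0 counts in UC-dFBS-2, and its 3p arm had 3 and 1 counts in UC-dFBS. The next largest was 1.69, for miR-199a. In the miR-199 hairpins the 5p arms were lost more than the 3p arms in both sera. miR-199a-5p was at -4.38 and -3.78 and miR-199a-3p at -2.52 and -2.25, whereas miR-199b-5p was at -3.62 and -3.70 and miR-199b-3p at -2.54 and -2.2. The 3p arms of both have the same mature sequence, so that their reads cannot be told apart. miR-142-3p (-3.85 and -3.52) was lost more than miR-142-5p (-3.23 and -2.33), and miR-151a-3p (-2.55 and -2.89) more than miR-151a-5p (-2.09 and -1.27). The difference between arms was not tested.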
